A study of Homo sapiens with 6 samples.

Results

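HLA-DMB, HLA-DMA, HLA-DRA and HLA-DRB1 are genes of the MHC class II pathway, and they were taken by symbol from the table deposited with a knockdown experiment. All 4 were found among its 753 genes. The experiment used AsPC-1, an established human pancreatic cancer cell line. The shTMPRSS4 group is 3 samples transduced with a lentivirus whose hairpin RNA targets TMPRSS4, the gene of a serine protease anchored in the cell membrane. The control group is 3 samples transduced with a control lentivirus. Both groups therefore share the cell line and the transduction. Neither the hairpin, the time after transduction nor whether samples were separate cultures is given in the sources used here. Poly(A) RNA was sequenced, and the series' title places the study in proliferation, apoptosis and ERK1/2 signalling.

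MHC class II molecules are cell-surface heterodimers that show peptides from endocytosed proteins to CD4+ T cells. HLA-DRA and HLA-DRB1 encode the alpha and beta chains of HLA-DR, one such surface molecule. HLA-DMA and HLA-DMB encode the chains of HLA-DM, a related heterodimer that stays in endosomes, where it helps remove the invariant chain fragment from class II molecules and edits the peptide they carry. The genes are normally active in antigen-presenting cells and can be switched on in epithelial cells by interferon gamma through the coactivator CIITA, which acts with RFX, CREB and NF-Y proteins bound at the X and Y boxes of their promoters.

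The table holds a selection. In the authors' deposited table every gene changed by 1 or more on the log2 scale, up or down, at a false discovery rate (FDR) no higher than 0.0490. That made the list 4.98% of 15117 genes, taken as those they adjusted over, and 3.67% when counted for genes higher in shTMPRSS4 samples. The 15117 is not stated by the authors. It was inferred from the ratio of FDR to p-value in the gene with the lowest p-value, assuming a Benjamini-Hochberg adjustment. A p-value on a listed gene is therefore not independent of its selection and describes these libraries, and a gene that is not listed was not analysed here. Depth, recovered from the ratio of counts to FPKM (a read count divided by gene length and library depth), was 46800000 to 53300000 reads in shTMPRSS4 libraries and 30200000 to 57200000 in control libraries. TMPRSS4 was not analysed here, so the labels are the only evidence of its knockdown. The library codes carry L4 in 5 samples and L3 in control replicate 3 alone.

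The promoters of the members are shown first because 3 of them carry the same letters at a similar place. RefSeq's table of promoter windows (GRCh38.p14, 250 bases before to 50 after each annotated start) held HLA-DMB, HLA-DMA and HLA-DRB1, while HLA-DRA had no entry. The stretches below run from 130 to 11 bases before the start, 5′ to 3′ on the strand of the gene, which is the minus strand of chromosome 6 for all 3. They lie at chr6:32941039-32941158 for HLA-DMB, chr6:32953108-32953227 for HLA-DMA and chr6:32589859-32589978 for HLA-DRB1. Capitals mark the longest run of bases that the 3 windows share and every CCAAT, or its reverse complement ATTGG.
HLA-DMB: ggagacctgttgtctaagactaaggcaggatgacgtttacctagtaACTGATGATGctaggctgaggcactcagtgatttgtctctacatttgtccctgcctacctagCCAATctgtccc
HLA-DMA: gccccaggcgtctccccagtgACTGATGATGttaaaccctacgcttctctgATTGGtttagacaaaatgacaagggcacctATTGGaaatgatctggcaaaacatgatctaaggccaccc
HLA-DRB1: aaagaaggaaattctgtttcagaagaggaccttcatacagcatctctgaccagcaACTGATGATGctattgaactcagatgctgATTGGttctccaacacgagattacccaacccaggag

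The shared run was ACTGATGATG, 10 bases long. It began 84 bases before the RefSeq start in HLA-DMB, 109 in HLA-DMA and 75 in HLA-DRB1. In the GENCODE annotation the HLA-DMA gene, on the minus strand, reaches 32969094, upstream of this window at chr6:32953108-32953227. The distances for HLA-DMA therefore hold for the RefSeq start only. Since the run was found as what these windows share, its presence in them is no result. Searched on both strands, it occurred in 30 of 35093 promoter windows (0.0855%) and, among the 809 windows whose symbol is in the deposited table, in those of HLA-DMA, HLA-DMB and HLA-DRB1 alone. In the class II list it occurred in 3 of 14 windows. These are the same 3 windows from which the run was taken, so neither count is evidence of enrichment. CCAAT, the core of a Y box, was far more common than the run, with a match on either strand in 12 of the 14 class II windows (85.7%), 34.6% of all windows and 32.9% of those of listed genes. In HLA-DMA matches on the opposite strand began 79 and 49 bases before the start, between the run and the start. In HLA-DRB1 such a match began 46 bases before the start, with another on the gene's strand at 195 bases, and in HLA-DMB a match on the gene's own strand began 22 bases before it. A match describes letters of the reference genome and not binding, and AsPC-1 may carry other alleles of these polymorphic genes.

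**Figure D1:**
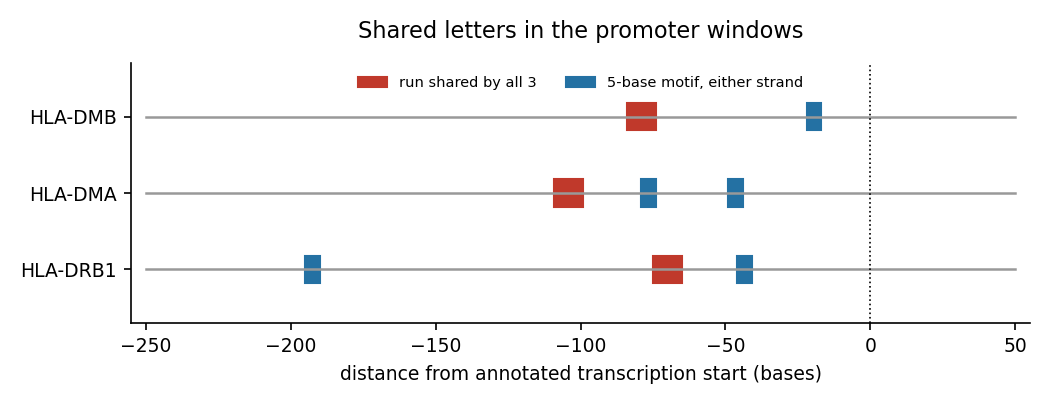
Position of the shared 10-base run (red) and of the 5-base CCAAT motif on either strand (blue) in the promoter windows of 3 members. The horizontal axis is the distance in bases from the transcription start annotated by RefSeq (dotted line), and in each window the run lies between 109 and 66 bases before the start.

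HLA-DMB and HLA-DMA were both higher in shTMPRSS4 cells, and HLA-DMB was the more changed of the pair. HLA-DMB (ENSG00000242574, chromosome 6, 32934629 to 32941070, GRCh38, minus strand), the beta chain of the peptide editor, had 84.6, 91.0 and 88.5 FPKM in shTMPRSS4 replicates 1, 2 and 3, against 23.9, 25.0 and 26.6 FPKM in control replicates 1, 2 and 3. Every shTMPRSS4 library lay above every control library, and the lowest of them was more than 3 times the highest control. The mean was 88.0 ± 3.25 FPKM in shTMPRSS4 and 25.2 ± 1.35 FPKM in control samples (SD, n = 3 each). HLA-DMB rose by 1.81 ± 0.05 on the log2 scale (SE), a fold of 3.50, with a Benjamini-Hochberg adjusted p of 2.04e-09 in edgeR's quasi-likelihood test. RNA was measured in bulk, so more cells with the transcript and more transcript per cell cannot be told apart.

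HLA-DMA (ENSG00000204257, chromosome 6, 32948613 to 32969094, minus strand), the alpha chain of the same heterodimer, had 27.1, 27.5 and 26.5 FPKM in shTMPRSS4 replicates 1, 2 and 3. The control replicates had 14.4, 12.9 and 12.2 FPKM. The groups did not overlap, and the spread was wider among the controls, with means of 27.0 ± 0.513 FPKM in shTMPRSS4 and 13.2 ± 1.15 FPKM in control samples (SD, n = 3 each). HLA-DMA rose by 1.03 ± 0.07 on the log2 scale (SE), with an adjusted p of 1.64e-06 in the edgeR quasi-likelihood test, when libraries were scaled by recovered depth. Scaled over the listed genes it had -0.19 with TMM and -0.14 with DESeq2 size factors, neither past the threshold, while HLA-DMB stayed higher at 0.59 and 0.63. These scalings pull the median log2 fold change of the listed genes, 1.29, down by 1.22 and 1.17, because 73.7% of them are higher in shTMPRSS4 samples. The edgeR test with recovered depth called 73.3% of the 705 genes it tested as higher, so a rise in both HLA-DM genes is close to what the list as a whole showed.

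In the authors' deposited table HLA-DMB had a log2 fold change of 1.81 (FDR 8.99e-95) and HLA-DMA one of 1.04 (FDR 9.22e-18). By that measure HLA-DMB ranked 34th and HLA-DMA 131st of the 139 higher genes whose shTMPRSS4 mean reached 5 FPKM. HLA-DMA thus sat just inside the limit of 1 by which genes were listed. By level, the mean over 6 libraries, they ranked 31st and 71st of the 753 genes, so that both belong to the abundant transcripts of the list.

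**Figure D2:**
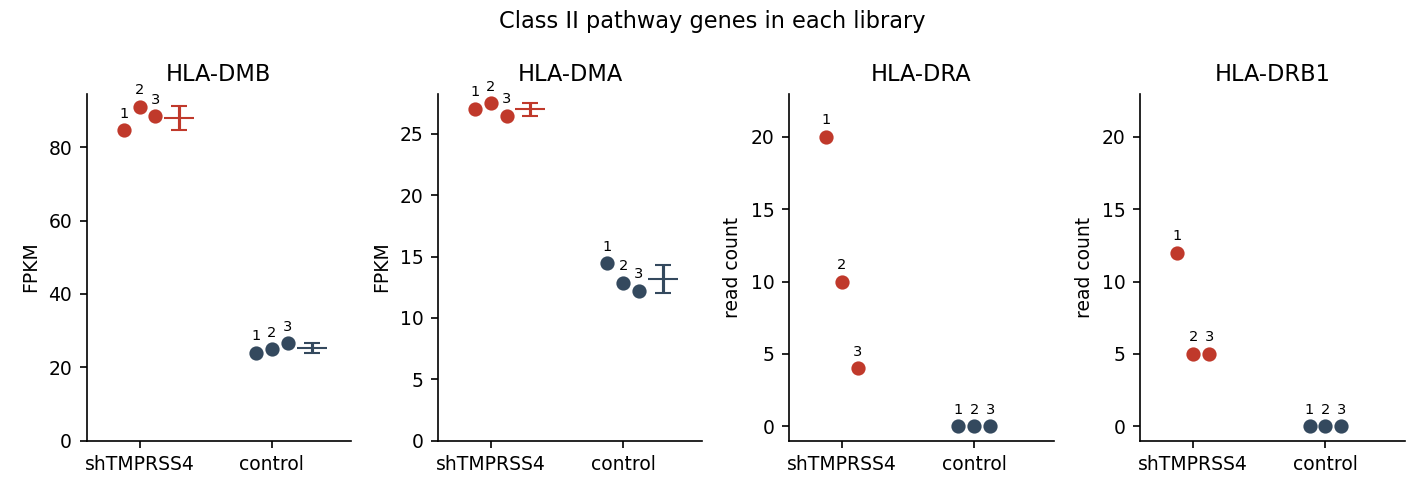
Each class II gene in each library, with shTMPRSS4 left of control and numbers giving the replicate. HLA-DMB and HLA-DMA are in FPKM with the mean and SD of 3 libraries beside the points, HLA-DRA and HLA-DRB1 in read counts, where the 3 control libraries are at 0 and shTMPRSS4 replicate 1 is highest at 20 and 12 reads.

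HLA-DM is built from 1 chain of each gene, so the ratio of the transcripts was compared within libraries, where library scaling cancels. HLA-DMB FPKM over HLA-DMA FPKM was 3.13, 3.31 and 3.34 in shTMPRSS4 replicates 1, 2 and 3, against 1.66, 1.94 and 2.18 in control replicates 1, 2 and 3. The lowest shTMPRSS4 ratio was above the highest control ratio, and the ratio varied more among the controls. Its mean was 3.26 ± 0.118 in shTMPRSS4 and 1.93 ± 0.261 in control samples (SD, n = 3 each). On the log2 scale the difference was 0.77 ± 0.12 (SE). A two-sided exact permutation test gave p = 0.10, the smallest that 3 against 3 samples allow, so this design could not pass 0.05. Counts, FPKM and the recovered depth together imply that the authors used about 942 bases for HLA-DMB and 878 for HLA-DMA. These lengths carry the error of the absolute depth, which was estimated from 12 genes. They lie within the 663 to 4569 and 611 to 1735 bases of the annotated transcripts. The level of the ratio depends on those lengths, and its change between groups does not.

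**Figure D3:**
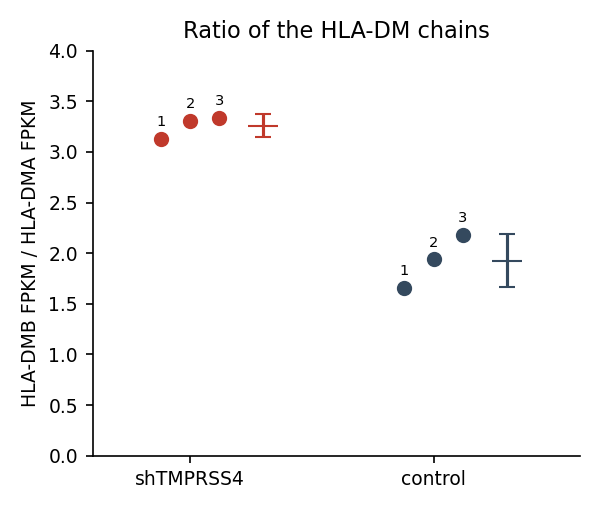
Ratio of HLA-DMB FPKM to HLA-DMA FPKM in each library, shTMPRSS4 left of control, with the mean and SD of 3 libraries beside the points and numbers giving the replicate. The shTMPRSS4 ratios, 3.13 to 3.34, lie above the control ratios, 1.66 to 2.18.

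The HLA-DR chains were at the limit of detection. HLA-DRA (ENSG00000204287, chromosome 6, 32439842 to 32445046, plus strand) had 20, 10 and 4 reads in shTMPRSS4 replicates 1, 2 and 3 and 0 reads in each control library. HLA-DRB1 (ENSG00000196126, chromosome 6, 32578769 to 32589848, minus strand) had 12, 5 and 5 reads in shTMPRSS4 replicates 1, 2 and 3 and also 0 in each control library. All shTMPRSS4 libraries held reads of both genes and no control library held any. A pattern of 0 reads in all 3 controls was shared by 49 of the 753 listed genes (6.51%).

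Scaled to depth, HLA-DRA had 3.75, 1.98 and 0.855 reads per 10000000 in shTMPRSS4 replicates 1, 2 and 3, with exact 95% Poisson intervals of 2.29 to 5.79, 0.951 to 3.65 and 0.233 to 2.19. The intervals of replicates 1 and 3 did not overlap. HLA-DRB1 had 2.25, 0.992 and 1.07 reads per 10000000, with intervals that overlapped between all 3 libraries. With a floor of 3 reads, a count of 0 allowed up to 0.524, 0.806 and 0.993 reads per 10000000 in control replicates 1, 2 and 3. The exact 95% Poisson intervals of these zero counts reached further, to 0.645, 0.991 and 1.22. HLA-DRA in shTMPRSS4 replicate 3, at 0.855, lay below the 1.22 that 0 reads allowed in control replicate 3. HLA-DRB1 in shTMPRSS4 replicates 2 and 3, at 0.992 and 1.07, lay below that limit as well. The intervals of these libraries, from 0.233 for HLA-DRA and from 0.322 and 0.347 for HLA-DRB1, overlapped those of every control library. That of HLA-DRA in shTMPRSS4 replicate 2, from 0.951, overlapped those of control replicates 2 and 3. That of HLA-DRB1 in shTMPRSS4 replicate 1, from 1.16, overlapped that of control replicate 3. HLA-DRA in shTMPRSS4 replicate 1, from 2.29, alone lay above all control intervals. Intervals and floors cover counting error only, since reads without molecular identifiers are not independent molecules.

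At the shTMPRSS4 rate, the depth of the 3 control libraries would have held 28.2 reads of HLA-DRA and 18.2 of HLA-DRB1. Set against a floor of 3 reads over the control group, HLA-DRA was 9.39-fold higher and HLA-DRB1 6.07-fold higher in shTMPRSS4 samples. These bounds leave out the counting error of the shTMPRSS4 reads. With a floor of 3 reads in each control library they were 3.13-fold and 2.02-fold. Replicate 1 held 58.8% of the 34 HLA-DRA reads and 54.5% of the 22 HLA-DRB1 reads. Without it the bounds were 5.99-fold and 4.28-fold, and without control replicate 1, the deepest control, 5.08-fold and 3.29-fold. In the authors' deposited table the log2 fold changes of 7.49 and 6.87 come from a control mean of 0 replaced by 0.001, so they are not a measured size.

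Both HLA-DR genes were removed by edgeR's filter on low counts, so 2 of the 4 members were tested and both were called higher. With no filter, all 4 were called higher, HLA-DRA at an adjusted p of 0.00534 and HLA-DRB1 at 0.00935 in the edgeR quasi-likelihood test, where 73.4% of the 753 genes were called higher. The median log2 fold change of the 4 members in the authors' deposited table was 4.34, and 2.20 with the HLA-DR genes at their bound, beside 1.33 over all listed genes either way. The measured values of the groups did not overlap for any of the 4, as was true in the same direction for 72.8% of the listed genes. For the HLA-DR genes this separation was 0 reads against as few as 4 for HLA-DRA and 5 for HLA-DRB1. Within counting error, the shTMPRSS4 libraries with these lowest counts could not be told apart from control replicate 3.

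The levels within the family were far apart. In shTMPRSS4 samples HLA-DRA averaged 0.18 ± 0.121 FPKM and HLA-DRB1 0.117 ± 0.0551 FPKM (SD, n = 3 each), so HLA-DMB was 489 times and HLA-DMA 150 times the level of HLA-DRA on the FPKM scale. The order was HLA-DMB, HLA-DMA and then the HLA-DR chains, whose values overlapped. HLA-DRA made up 62.5%, 66.7% and 44.4% of the reads of HLA-DRA and HLA-DRB1 together in shTMPRSS4 replicates 1, 2 and 3. The exact Clopper-Pearson 95% intervals, 43.7 to 78.9%, 38.4 to 88.2% and 13.7 to 78.8%, overlap. No difference between these libraries in the balance of HLA-DRA and HLA-DRB1 was therefore detectable at this depth. Other genes of HLA-DR beta chains are not part of this share.

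Reads of some members can belong to other genes. Of the 31-base words of HLA-DRB1 transcripts 24.6% also occur in another gene, mostly HLA-DRB5, a paralog that encodes another HLA-DR beta chain, and HLA-DRB6, so its reads are uncertain in origin. The shares were 8.80% for HLA-DMB, 5.40% for HLA-DMA and 0 for HLA-DRA. HLA-DMB and HLA-DMA both overlap AL645941.2, an annotated gene on the same strand that spans them, and HLA-DMA overlaps BRD2 on the opposite strand. No strand-marking step is described, so reads in the overlaps could not be assigned with certainty.

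**Figure D4:**
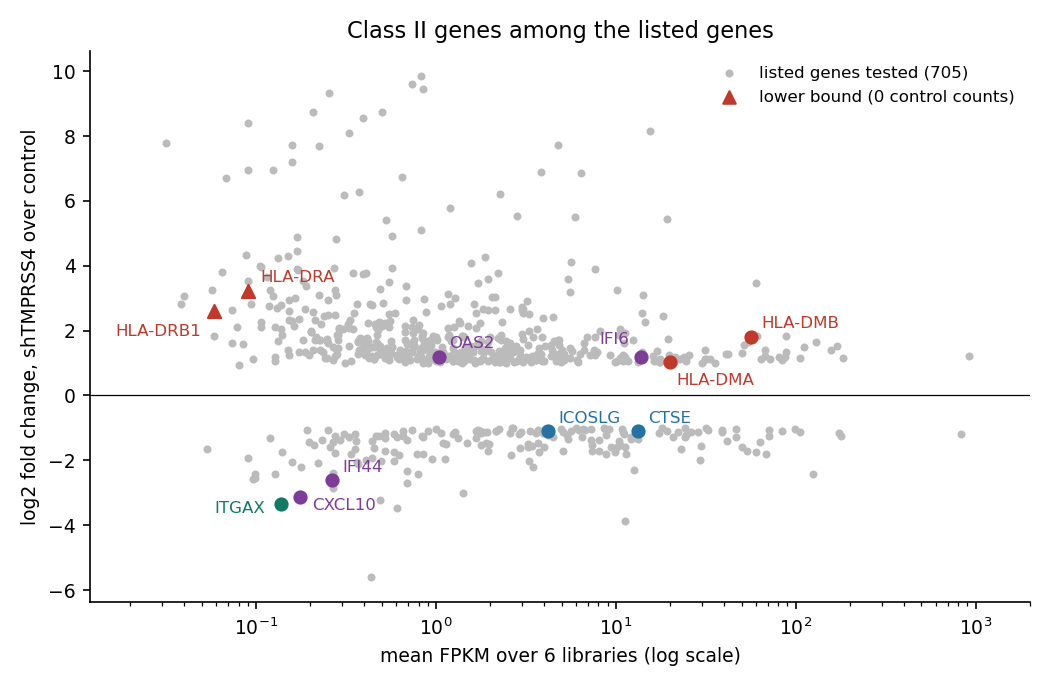
Log2 fold change (shTMPRSS4 over control) against the mean FPKM over 6 libraries, on a log scale, for the 705 listed genes tested (grey). Class II genes are red, CTSE and ICOSLG blue, interferon-stimulated genes purple and ITGAX green. Triangles are lower bounds for genes with 0 control counts, and the gap between -1 and 1 is the selection of the table.

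The rest of the class II machinery was mostly outside the table. Of 16 class II molecules and chaperones, a list that includes HLA-DP, HLA-DQ, HLA-DO and the invariant chain CD74, the 4 members were the ones listed, all higher. None of 8 transcription regulators of these genes (CIITA, the RFX and NF-Y subunits and CREB1) and none of 12 genes of interferon gamma signalling was listed, so they were not analysed here. Of 20 genes of endosomal antigen processing 1 was listed. CTSE, an endosomal aspartic protease, fell to 8.46, 8.41 and 8.42 FPKM in shTMPRSS4 replicates 1, 2 and 3, against 17.9, 18.3 and 18.1 FPKM in control replicates 1, 2 and 3. On the log2 scale CTSE differed by -1.10 ± 0.01 (SE; edgeR quasi-likelihood test, adjusted p = 1.01e-07). HLA-DMB and CTSE changed in opposite directions under every scaling run, while HLA-DMA was opposite to CTSE with recovered depth and of the same sign when scaled over the listed genes. Across the 3 lists, 2 genes were called higher and 1 lower, that is all 3 that passed the filter, where the edgeR test called 99.1% of all listed genes tested in either direction.

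Listed genes of neighbouring pathways went both ways. None of 22 class I presentation genes was listed. Of 16 co-stimulation and checkpoint ligands ICOSLG, the ligand of the T cell co-stimulator ICOS, fell to 2.66 ± 0.626 FPKM in shTMPRSS4, against 5.74 ± 1.05 FPKM in control samples (SD, n = 3 each), with a log2 fold change of -1.11 ± 0.27 (SE). Of 32 interferon-stimulated genes 4 were listed, 2 higher and 2 lower. IFI6, an interferon-induced mitochondrial protein, rose to 19.2 ± 1.84 FPKM in shTMPRSS4, against 8.35 ± 0.787 FPKM in control samples, and OAS2, an antiviral oligoadenylate synthetase, had 1.44 ± 0.0751 against 0.630 ± 0.0954 FPKM. Both turned slightly lower, to -0.03 and -0.02 on the log2 scale, under TMM over the listed genes. The chemokine gene CXCL10, a classical target of interferon gamma, had 2, 0 and 4 reads in shTMPRSS4 replicates 1, 2 and 3, against 22, 17 and 8 in control replicates 1, 2 and 3. IFI44 had 0, 5 and 5 reads against 20, 12 and 19. Both fell in the edgeR quasi-likelihood test (adjusted p = 0.00145 for CXCL10 and 0.00423 for IFI44), with log2 fold changes of -3.14 and -2.61 that were -4.10 without shTMPRSS4 replicate 3 and -2.58 without replicate 2 for CXCL10, and -2.01 without shTMPRSS4 replicate 1 for IFI44.

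Markers of professional antigen-presenting cells were checked because those cells express class II genes. Of 16 such markers ITGAX, the CD11c integrin chain of dendritic cells, was the 1 listed. It had 3, 5 and 4 reads in shTMPRSS4 replicates 1, 2 and 3, against 56, 16 and 34 in control replicates 1, 2 and 3, which is 0.02 to 0.03 FPKM in shTMPRSS4 and 0.13 to 0.33 FPKM in control libraries. ITGAX fell by 3.36 on the log2 scale (edgeR quasi-likelihood adjusted p = 0.000137), opposite to the class II genes. The other 15 markers, PTPRC, MS4A1 and CD14 among them, were not analysed here, and the part of other cells in the class II result was not tested. Of 12 fibroblast and endothelial markers FAP was higher and PECAM1 lower, and none of 8 epithelial markers was listed, so the label of the cells could not be checked against them.

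The deposited annotation put further genes beside the members. Its KEGG term for antigen processing and presentation was carried by 6 listed genes, all higher, where 73.7% of all listed genes were higher. They were the 4 members and KLRC2 and KLRC4, lectin-like receptor genes of natural killer cells, and 3 of the 6 passed the filter on low counts. KLRC2 had 57, 35 and 31 reads in shTMPRSS4 replicates 1, 2 and 3, against 10, 4 and 9 in control replicates 1, 2 and 3 (log2 fold change 2.10 ± 0.45, edgeR adjusted p = 0.000965), and it was not called under TMM or DESeq2 size factors over the listed genes. KLRC4 had 14, 6 and 12 reads in shTMPRSS4 and 0 in each control library. Set against a floor of 3 reads over the control group, it was 8.83-fold higher, or 4.78-fold without control replicate 1. Both belong to a gene family of similar sequence, and how many of their reads other members could share was not tested. Terms for antigen presentation or MHC class II added 3 genes, CTSE, the dynein light chain gene DYNLL2 and RAB8B, which encodes a small GTPase of vesicle transport. DYNLL2 rose to 42.8 ± 0.210 FPKM in shTMPRSS4, against 19.6 ± 0.266 FPKM in control samples, but had -0.10 on the log2 scale under TMM and -0.05 under DESeq2 size factors over the listed genes. RAB8B fell to 1.96 ± 0.489 FPKM, against 5.42 ± 0.471 FPKM in control samples (SD, n = 3 each).

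All members lie in the MHC region of chromosome 6, taken here from GABBR1 to KIFC1 (29555629 to 33409924, GRCh38). There 9 of 329 annotated genes were listed, 7 higher and 2 lower, where 73.7% of all listed genes were higher. The 7 include the 4 members, so this split is not independent of them. The region's other listed genes were MUCL3, LTA and PRRT1, higher, and TRIM31 and AL645922.1, lower. The share listed was 2.74% of genes of every type, of which 157 are protein-coding. The 329 may include genes the authors did not adjust over. This share therefore cannot be compared with the 4.98% listed of the genes they adjusted over. TRIM31 (30102897 to 30113106), an E3 ubiquitin ligase encoded near the class I genes, fell to 4.04, 4.42 and 4.23 FPKM in shTMPRSS4 replicates 1, 2 and 3, against 20.8, 20.9 and 21.0 FPKM in control replicates 1, 2 and 3 (log2 fold change -2.30 ± 0.04, edgeR adjusted p = 1.27e-09). It moved opposite to HLA-DMB and by more on the log2 scale. The cytokine gene LTA had 27, 30 and 22 reads in shTMPRSS4 and 7, 2 and 2 in control replicates, a log2 fold change of 2.56 ± 0.30 (edgeR adjusted p = 0.000437). MUCL3 rose by 1.34 ± 0.17 and PRRT1 by 1.16 ± 0.14 on the log2 scale, but under TMM and DESeq2 size factors over the listed genes neither was called, with 0.12 and 0.17 for MUCL3 and -0.06 and -0.005 for PRRT1. AL645922.1, the gene listed nearest to PRRT1, had 0 reads in each shTMPRSS4 library and 17, 1 and 5 reads in control replicates 1, 2 and 3. Set against a floor of 3 reads over the shTMPRSS4 group, it was 9.26-fold lower, or 4.46-fold without control replicate 1.

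**Figure D5:**
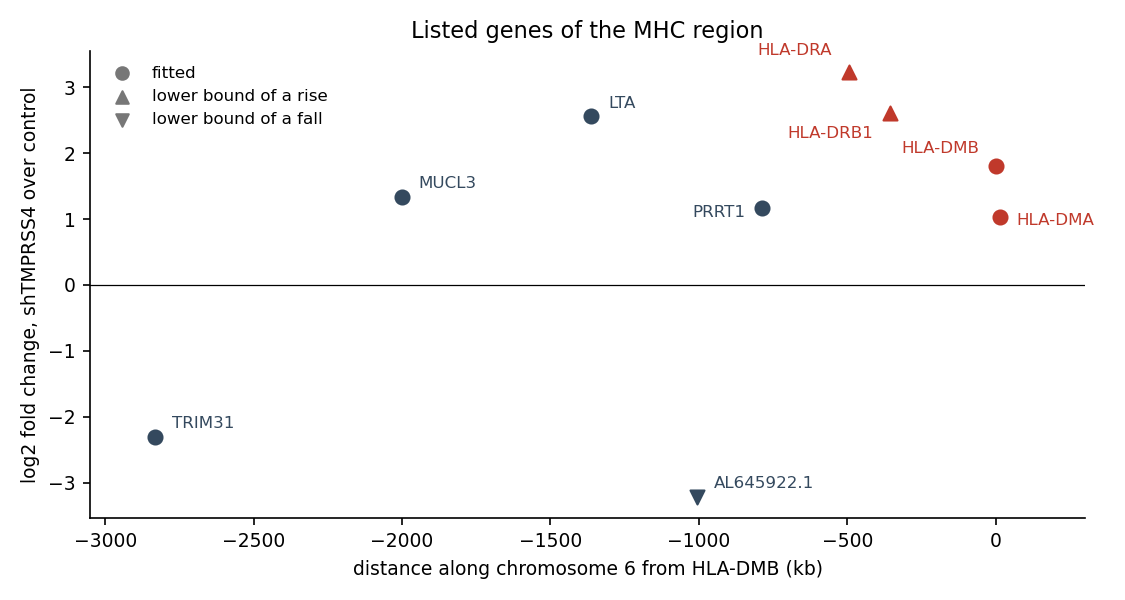
Listed genes of the MHC region by distance along chromosome 6 from HLA-DMB in kb, against the log2 fold change (shTMPRSS4 over control), with HLA genes in red. Circles are fitted values and triangles lower bounds for genes with 0 reads in a group, and TRIM31 and AL645922.1 are the 2 below 0.

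The listed genes whose profile over the 6 libraries was most like that of a member were found by the root mean square difference of centred log2 values, among 387 other genes that averaged 1 FPKM or more. For HLA-DMB they were DYNLRB1, a dynein light chain gene (0.054), SYT8, a synaptotagmin gene (0.081), and SBK1, a protein kinase gene (0.086). For HLA-DMA they were ILDR1 (0.048), USP40, a deubiquitinase gene (0.059), and the small GTPase gene RHOB (0.063). HLA-DMA and HLA-DMB were not among each other's nearest. A profile of 6 libraries in 2 groups is mostly set by the size of the group difference, so the likeness is a description of that size.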

How the data were processed

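Per the file headers, the authors deposited 1 table with a read count and an FPKM value per gene and library, group means of FPKM, the log2 fold change between them, and a p-value with its FDR. Bowtie 0.12.2 and 2 mouse builds, mm8 and mm9, are named in the submitters' processing notes, although all 753 identifiers are human and matched GENCODE release 29 (GRCh38). Neither counter, annotation nor statistical test was stated in the labels or headers. Relative depth was the median ratio of count over FPKM across 159 genes with at least 200 counts in every library, and absolute depth came from 12 of them with 1 annotated transcript. Counts were fitted with edgeR 4.0.16 (R 4.3.3), quasi-likelihood test, recovered depth as library size, low-count filter, no covariate, all 6 libraries, with Benjamini-Hochberg adjustment over all 705 genes tested and a threshold of 0.05. The fit was checked on simulated counts. SE came from log2 depth-scaled counts plus 0.5. The labels do not say that replicates were separate cultures, so p-values measure only the spread between these samples. Alternatives were TMM and DESeq2 1.42.0 scaling over listed genes, no filter, the DESeq2 test, limma 3.58.1 on log2(FPKM + pseudocount), a replicate block, and leaving out each library. Named genes were the members, listed genes of the gene lists, genes annotated with antigen presentation, genes of the MHC region and the 3 nearest profiles to each HLA-DM gene. Members and lists were chosen with earlier results of these data known. Promoters came from RefSeq (GRCh38.p14).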

Additional observations from a re-analysis of the deposited data

How the results depend on the processing

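HLA-DMB was called higher under every alternative run, at 0.59 with TMM and 0.63 with DESeq2 size factors over the listed genes and 1.77 or more otherwise. The HLA-DMB to HLA-DMA ratio was higher in shTMPRSS4 samples under every alternative run, although its test cannot pass at this size. HLA-DMA turned to -0.19 under TMM and -0.14 under DESeq2 size factors over the listed genes, which also turned ILDR1 (-0.19 and -0.14), USP40 (-0.20 and -0.15), RHOB (-0.12 and -0.07), DYNLL2 (-0.10 and -0.05) and PRRT1 (-0.06 and -0.005), and TMM alone turned IFI6 (-0.03) and OAS2 (-0.02). KLRC2 and MUCL3 lost their call under both, and IFI6 and OAS2 under DESeq2 size factors. These scalings left 1 of 4 members called, against 2, and by construction pull the listed genes towards 0. With no filter, the DESeq2 test and limma with each pseudocount, 4 members and 5 class II pathway genes were called, against 2 and 3, because the low-count filter does not act there. For HLA-DRA the log2 bound of 3.23 became 2.01 under TMM, 2.07 under DESeq2 size factors and 1.65 with a floor of 3 counts per library, and fitted values, which depend on the prior count, were 6.37 with no filter, 5.58 with DESeq2, and 1.39 and 0.23 with limma and pseudocounts of 0.1 and 1. For HLA-DRB1 the bound of 2.60 became 1.39, 1.44 and 1.02, and fitted values were 5.76, 4.97, 1.09 and 0.16, and 3.58 with a pseudocount of 0.01. Leaving out 1 library gave 1.77 to 1.85 for HLA-DMB, 0.98 to 1.11 for HLA-DMA, 2.34 to 3.59 and 1.72 to 2.82 for the bounds of HLA-DRA and HLA-DRB1, 0.66 to 0.86 for the ratio, 2 to 3 members called and 3 to 4 pathway genes called. Without control replicate 3, the library coded L3, HLA-DMA had 0.98. Deviations of same-numbered replicates of the 2 groups correlated at -0.066, -0.06 and -0.02, and those of differently numbered replicates at -0.029 to 0.084. Such values on selected genes cannot show whether same-numbered replicates were handled together. With the replicate block HLA-DMB had 1.81 and HLA-DMA 1.04, the ratio differed by 0.77, and HLA-DRA and HLA-DRB1 had 6.53 and 5.88 with no filter; the block changed no call. Depth limits the HLA-DR genes, whose levels rest on 34 and 22 reads.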
